A study of Mus musculus with 14 samples.

Results

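Chromatin regions that were called open from 12 h of hypoxia on were followed in 4T1 cells, a mouse mammary tumor cell line that grows as an epithelial culture. Accessible DNA was measured by bulk ATAC-seq, in which a transposase inserts sequencing adapters where DNA is not packed away by nucleosomes. The 14 samples formed 7 groups of 2 replicates, a single group in normoxia and 6 groups kept at 1% oxygen for 6, 12, 24, 36, 48 or 72 h, with no other agent or allele named in the labels. The labels give no oxygen level for the normoxic cultures. A legend of the study on HIF1α staining in this line describes its control as cultured at an oxygen level below that of air, so normoxia is used here only as the label's word. All groups come from a single established line. The peaks of each group had been called after the reads of its 2 replicates were pooled, which leaves 7 lists, so no value has a replicate error and no test between conditions was possible. Peaks that overlapped or touched across lists were joined, which gave 108795 merged regions. A region was kept when it held a peak in the 12, 24, 36, 48 and 72 h lists, called the late lists here, and none in the normoxia and 6 h lists. This gave 2284 regions, or 2.10% of all merged regions, which are called the members. They were chosen by the peak calls themselves, so their presence after 12 h and their absence before are a description and not a finding.

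Cells that lack oxygen stabilise the HIF factors, which bind short RCGTG sites in open chromatin next to glycolytic and angiogenic genes. Longer hypoxia also engages stress-responsive bZIP factors, among them AP-1, a dimer of Fos and Jun proteins, and the C/EBP and ATF proteins. Most regulatory DNA that opens or closes between cell states lies in enhancers away from gene starts, whereas CpG-rich promoters tend to stay open in every state.

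A peak is described by 3 values. Its −log10 q is the caller's significance over background, and the lists began at a q of 0.05, or a −log10 q of about 1.30. Its summit reads are the number of read fragments stacked at the highest point, recovered from the deposited fold and p. Its relative summit level gives those reads as a percentage of the median in the 36113 regions found in all 7 lists, taken within the same list. The lists differ in depth, so summit reads show the data behind a call within a list, and lists are compared by relative level. The calling level is the relative summit level at which a peak over that list's genome background would just enter the list. It is the lowest such level, because a peak on a higher local background needs more reads. The lists held 49006 to 81732 peaks and their genome background ran from 0.926 reads in normoxia to 3.25 reads at 6 h. The calling level was 19.2% in normoxia and 35.5% at 6 h, against 15.4% to 25.7% in the late lists, so the 6 h list was the least able to hold a weak region. Promoters of all 6 epithelial markers examined, Epcam, Krt8, Krt18, Cdh1, Cldn4 and Krt19, had a peak in every list. Of 7 immune marker promoters 1 or 2 had a peak per list, and the promoters of Ptprc, Cd3e and Itgam had none in any list. Of 3 endothelial promoters none had a peak in normoxia and at most 1 in a hypoxia list. Of 4 fibroblast promoters 1 had a peak in normoxia and at 6 h and 2 in every late list, the added promoter being that of Col1a1, which is itself a member. In bulk lists, more cells with an open site and a more open site per cell cannot be told apart.

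The 10 members that ranked highest, by the mean of their −log10 q ranks in the late lists, show what these elements are made of. Each line gives the gene with the nearest start and 60 bases on each side of the strongest summit in mm9, plus strand, 5′ to 3′. Capitals mark any letters of 19 motifs searched on both strands, of which AP-1 (TGANTCA), TEAD (ACATTCC), FOX (TGTTTAC or TATTTAC) and SP/KLF (GGGCGG) occurred. In the Wdfy3 window the FOX and TEAD letters overlap.
Maf, chr8:118272652-118272772: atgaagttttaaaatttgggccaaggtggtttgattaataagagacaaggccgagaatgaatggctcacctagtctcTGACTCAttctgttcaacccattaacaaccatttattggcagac
Etaa1, chr11:18161182-18161302: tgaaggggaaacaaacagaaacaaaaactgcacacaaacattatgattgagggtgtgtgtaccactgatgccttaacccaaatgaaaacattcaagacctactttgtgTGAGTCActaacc
Prdm2, chr4:142708947-142709067: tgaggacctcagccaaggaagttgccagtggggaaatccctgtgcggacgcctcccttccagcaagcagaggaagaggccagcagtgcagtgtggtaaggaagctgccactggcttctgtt
Abcb4, chr5:8877237-8877357: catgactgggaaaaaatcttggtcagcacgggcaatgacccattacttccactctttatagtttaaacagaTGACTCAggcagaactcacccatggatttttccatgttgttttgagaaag
Wdfy3, chr5:102299742-102299862: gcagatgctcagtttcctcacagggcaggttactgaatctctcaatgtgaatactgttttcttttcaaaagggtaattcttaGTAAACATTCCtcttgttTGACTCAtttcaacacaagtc
Zfp536, chr7:38105247-38105367: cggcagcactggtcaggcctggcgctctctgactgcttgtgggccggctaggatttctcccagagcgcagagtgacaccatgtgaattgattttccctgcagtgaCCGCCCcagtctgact
Sgpp2, chr1:78368301-78368421: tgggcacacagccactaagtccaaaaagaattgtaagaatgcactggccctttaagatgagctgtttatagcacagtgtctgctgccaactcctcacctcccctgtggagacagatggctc
Pigp, chr16:94583926-94584046: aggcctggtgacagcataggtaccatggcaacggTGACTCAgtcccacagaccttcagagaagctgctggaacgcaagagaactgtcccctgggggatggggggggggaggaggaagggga
Sept5, chr16:18683786-18683906: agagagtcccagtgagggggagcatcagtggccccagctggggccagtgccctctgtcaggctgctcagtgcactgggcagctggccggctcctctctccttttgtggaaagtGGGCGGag
Msra, chr14:64969024-64969144: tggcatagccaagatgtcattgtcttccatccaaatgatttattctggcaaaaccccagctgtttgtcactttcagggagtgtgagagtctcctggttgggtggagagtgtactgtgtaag
AP-1 letters stood in 5 of these 10 windows, and 3 windows held none of the 19 motifs. Not every motif counted further on is marked, and the single arm of the NFI site (TTGGCA) stands unmarked in the Maf and Sgpp2 windows. The windows show individual strong members. The shares over all members and over all regions, within 100 bp of the summit, are given further on.

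The leading members were called strongly in each late list. The first lay 41.0 kb upstream of Maf, which encodes a bZIP transcription factor, at chr8:118272396-118273083. From 12 to 72 h its −log10 q was 24.9, 20.2, 19.6, 23.5 and 18.2, from 34, 27, 33, 36 and 30 summit reads. The second, 307 kb from the start of Etaa1, an activator of the replication stress kinase ATR, had 30, 26, 31, 32 and 31 reads from 12 to 72 h. Relative to the regions of all 7 lists its level was 57.7%, 65%, 91.2%, 69.6% and 88.6%, and that of the Maf region was 65.4%, 67.5%, 97.1%, 78.3% and 85.7%. Both were highest at 36 h and lowest at 12 h, and the counting intervals of their ratios of 72 h to 12 h, 0.899 to 2.63 and 0.775 to 2.21, held 1. A member 16.4 kb upstream of Abcb4, a phospholipid transporter gene, reached its highest −log10 q of 33.6 at 24 h, from 44 reads, and had 32, 22, 34 and 29 reads at 12, 36, 48 and 72 h. A member in an intron of Wdfy3, which encodes an adaptor for the autophagy of protein aggregates, had 30, 30, 26, 28 and 26 reads, and a member in an exon of Zfp536, a zinc finger protein gene, had 26, 28, 29, 30 and 25 reads.

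Of the other leading members, 4 had their highest relative level at 72 h. The region with the most reads of all members at 72 h lay in an intron of Prdm2, a histone methyltransferase gene, at chr4:142708720-142709232. It had 61, 47, 42, 76 and 92 reads from 12 to 72 h, and a −log10 q of 20.9, 15.7, 13.7, 30.5 and 43.5. Its local background was 8.62 to 12.8 reads per list, several times the genome background, so that its −log10 q was modest for its reads. A member in an intron of Sgpp2, which encodes a sphingosine 1-phosphate phosphatase, had 25, 29, 20, 43 and 47 reads from 12 to 72 h. Its relative summit level at 72 h was 2.79 times that at 12 h, with a 95% counting interval of 1.68 to 4.74, and that of the Prdm2 region was 2.24 times (1.60 to 3.15). Members in introns of Pigp, a gene of GPI anchor synthesis, and of Msra, which encodes a methionine sulfoxide reductase, and a member 53.8 kb from Sept5, a septin gene, completed the group. Their reads ran from 20 to 36, from 21 to 38 and from 35 to 51. In all 10 the lowest late level, 40.4% to 117%, was above the calling levels of normoxia and of 6 h.

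**Figure D1:**
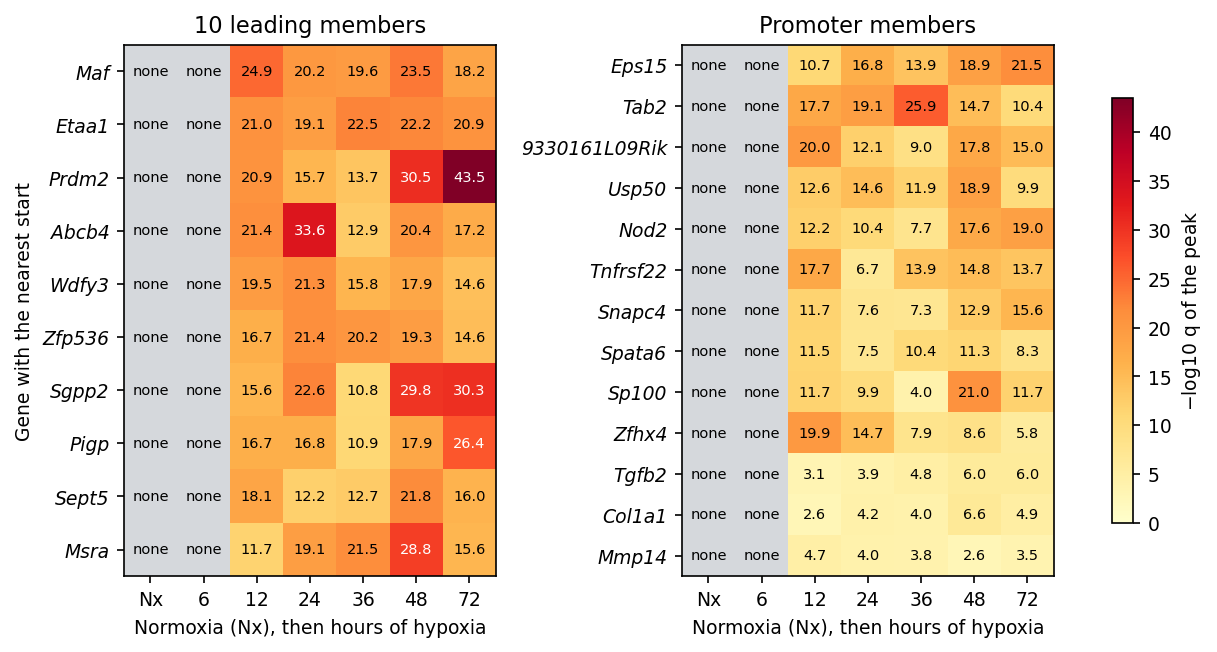
The −log10 q of each peak (color and number) in normoxia (Nx) and at 6 to 72 h of hypoxia, for the 10 leading members (left) and for the 10 leading promoter members with 3 promoter members of listed genes (right), each row named by the gene with the nearest start. Grey fields marked none had no peak, by the choice of the members. The strongest field is Prdm2 at 72 h with 43.5, and Tgfb2, Col1a1 and Mmp14 stay at or below 6.62 in every list.

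Absence before 12 h has to be read against the other regions with 5 late peaks. Of the 44322 regions with a peak in every late list, 36113 also had a peak in normoxia and at 6 h, 4295 lacked a peak at 6 h only, 1630 lacked it in normoxia only and 2284 lacked both. Thus 8.83% of these regions had no normoxia peak and 14.8% had no 6 h peak. Among the 3914 regions without a normoxia peak, 58.4% also lacked a 6 h peak, against 10.6% of the 40408 regions with a normoxia peak. By count, the regions lacking only the 6 h peak outnumbered the members, but they were 10.6% of the regions with a normoxia peak. These shares use the calls that chose the members and are given as a description.

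Most members were weak to moderate peaks. From 12 to 72 h their median summit reads were 18, 15, 14, 19 and 17, and the median −log10 q was 7.13, 5.84, 4.8, 7.67 and 5.77. The relative summit level had a median of 34.6%, 37.5%, 41.2%, 41.3% and 48.6% in the same order, so a typical member stood at well under the level of the regions open in all lists. The weakest of the 5 late peaks of a member had a median −log10 q of 3.36, against 11.0 over all regions with 5 late peaks. In 411 members (18%) every late peak had a −log10 q of 5 or more, and in 27 members of 10 or more. At the lower edge, the members nearest to Ube2e2, 2610044O15Rik and Tulp4 entered by a 24 h peak with a −log10 q of 1.32 from 7 reads. Just outside, a promoter region of Skil was left out by a 6 h peak with a −log10 q of 1.31, and regions in an intron of Ccnt2 and at the promoter of Zfp57 by normoxia peaks of 5 reads with a −log10 q of 1.31.

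The lists' calling levels touch the choice of members. The lowest late level was at or above the normoxia calling level in 2213 members (96.9%, 95% exact binomial interval 96.1% to 97.6%). It was at or above the 6 h calling level in 535 members (23.4%, 21.7% to 25.2%). The other 1749 members had in at least 1 late list a level that the 6 h list would not have called. The part of the shallower 6 h contrast in the missing 6 h peaks was not tested. The local background at the summit equaled the genome background, within 5%, in 55% to 61% of the members per late list, and was at least 2 times the genome background in 8.89% to 12.7%. In the regions of all 7 lists the latter share was 34.2% to 50.8%.

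**Figure D2:**
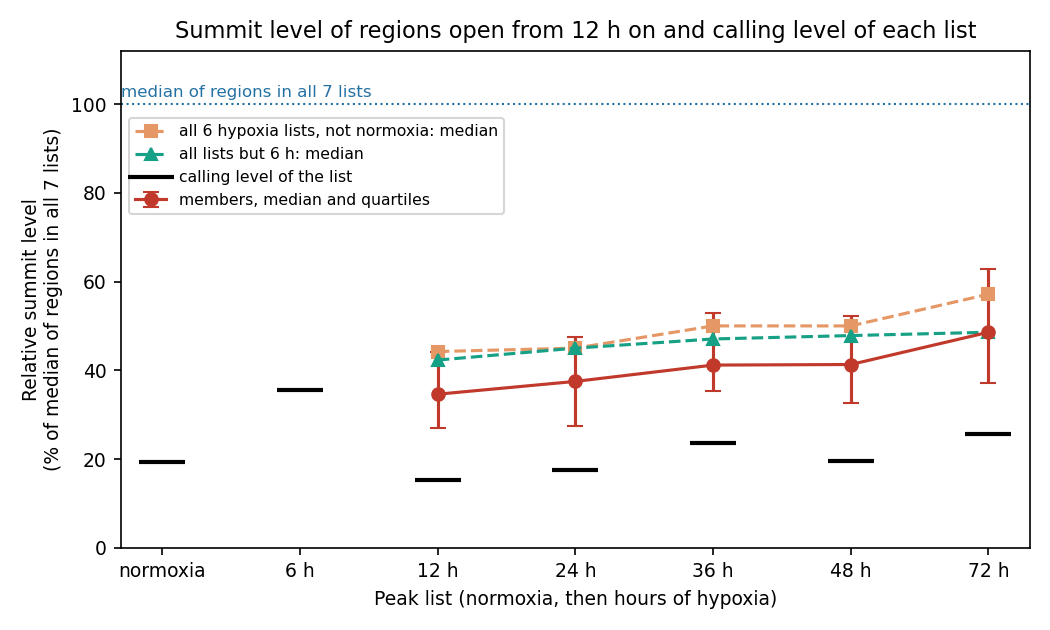
Relative summit level (% of the median of the regions in all 7 lists, dotted line at 100) in each list, with the median and quartiles of the 2284 members in red, the medians of the regions in all 6 hypoxia lists but not normoxia (squares) and of the regions missing at 6 h only (triangles), and the calling level of each list as a black bar. The members' median is 34.6% at 12 h and 48.6% at 72 h, and the 6 h calling level, 35.5%, lies close to their 12 h median.

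Within the late lists most members stood higher at 72 h than at 12 h. The ratio of the relative summit level at 72 h to that at 12 h had a median of 1.41. It was 1.5 times or more in 956 members (41.9%, exact binomial interval 39.8% to 43.9%), against 13.7% of all regions with 5 late peaks, and was lower by that factor in 54 members (2.36%), against 9.0%. The share higher at 72 h was 32.7% in the regions of all 6 hypoxia lists without normoxia, 25.6% in the regions missing at 6 h only and 9.63% in the regions of all 7 lists. The highest of the 5 levels fell at 72 h in 1090 members (47.7%) and at 12 h in 141 (6.17%), and the lowest fell at 12 h in 994 (43.5%). In 131 members the level was higher at every step. The calling level was also higher at 72 h, at 25.7% against 15.4% at 12 h, and a weak region had to stand higher at 72 h to be counted. A region just at both limits would already count as 1.5 times higher. The members' shares are therefore partly set by their choice, and sets of stronger regions are less bound by these limits. The part of the calling levels in the ratio was not tested. With the deposited fold enrichment in place of summit reads the share higher at 72 h was 26.3%, against 7.80% over all regions with 5 late peaks, and the share lower was 3.98%, against 7.05%.

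Single members differed between 12 and 72 h in both directions. Among those with 20 or more summit reads at 12 or 72 h, a member in an intron of Ipo11, a nuclear import receptor gene, had a ratio of 4.91 (95% counting interval 2.59 to 9.96), with 13, 19, 27, 31 and 43 reads from 12 to 72 h. A similar course was seen 9.41 kb from the start of Anxa1, which encodes an annexin that dampens inflammation, with 14, 17, 17, 25 and 44 reads. A region 77.7 kb from Nxt1, an mRNA export factor gene, had 9, 14, 13, 20 and 28 reads. The promoter member of Il20rb, a receptor chain for the cytokines of the IL-20 group, had 14, 13, 15, 24 and 43 reads. Outside this member, Il20rb also had a normoxia or 6 h peak within 1 kb of a start. These 4 members were highest at 72 h and their counting intervals lay above 2. They were picked for a high ratio among 1247 members, from the same reads that give the intervals. The intervals thus describe counting error and are no evidence of a change.

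The opposite course began high at 12 h. A region 158 kb from Cog6, a gene for a Golgi tethering subunit, had 30, 15, 11, 17 and 9 reads, and its −log10 q went from 21 at 12 h to 1.59 at 72 h. A region 74.6 kb from Lnx1, a ubiquitin ligase gene, had 42, 18, 13, 27 and 14 reads, and a region in an exon of Fam129a had 32, 15, 13, 16 and 11 reads. Members in an intron of Mecom, a zinc finger transcription factor gene, and 90.7 kb from 0610007P08Rik went from 29 reads at 12 h to 10 at 72 h. The ratios of these 5 were 0.45 to 0.51, with counting intervals below 1 for the Cog6 and Lnx1 regions only (0.186 to 0.963 and 0.250 to 0.925). These 5 were picked for a low ratio from the same reads, so the intervals are no evidence of a change here either. AP-1 letters stood near the summit in 3 of these 5 regions and in 1 of the 4 regions with high ratios above.

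**Figure D3:**
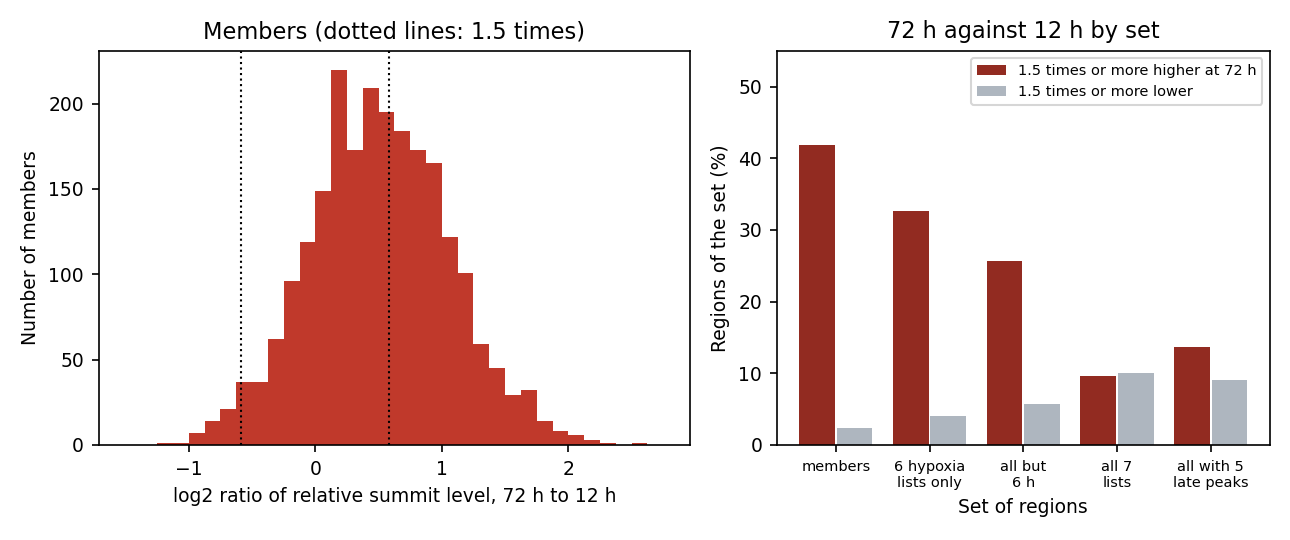
Left, the number of members by the log2 ratio of relative summit level at 72 h to 12 h, with dotted lines at 1.5 times in each direction. Right, the percentage of regions at least 1.5 times higher (dark red) or lower (grey) at 72 h in 5 sets of regions; the members have the highest share of higher regions, 41.9%, and the lowest share of lower ones, 2.36%.

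In 2183 members each late list held a single peak, and the late summits lay a median of 118.5 bp apart at most. They lay within 250 bp in 2081 members (91.1%) and within 100 bp in 850 (37.2%). Peaks were joined where they overlapped or touched, and members were 501 bp wide at the median. Close summits thus largely follow from that rule and are a description. The relative level of members in 2 late lists had a Spearman correlation across members of 0.348 (12 h and 72 h) to 0.512 (48 h and 72 h); regions are not independent replicates, and every list pools its own libraries. The highest of a member's 5 levels was a median of 1.85 times the lowest and at least 2 times the lowest in 892 members (39.1%). Members were isolated from each other, with a median of 261 kb to the next member and 4 members within 1 kb of another. The nearest normoxia or 6 h peak lay a median of 8.11 kb away, and in 243 members (10.6%) within 1 kb.

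Members were mainly distal. Of the 2284, 1209 (52.9%) lay between genes, 868 (38.0%) in introns, 71 (3.11%) in exons and 136 (5.95%) within 1 kb of a start of a protein-coding gene, called a promoter here. The exact binomial interval of the promoter share was 5.02% to 7.0%. It was 14.5% over all regions, 28.6% in the regions of all 7 lists, 10.7% (9.22% to 12.3%) in the regions of all 6 hypoxia lists without normoxia and 8.21% (5.68% to 11.4%) in the 390 regions open from 24 h on. The members' interval therefore lay below those of the first 3 sets and overlapped that of the regions open from 24 h on. The exon share was 3.11% in members (2.44% to 3.91%), 1.59% in the regions of all 7 lists and 2.26% over all regions. It was 2.39% (1.71% to 3.26%) in the regions of all 6 hypoxia lists without normoxia. In the regions open from 24 h on it was 3.08%, so the exon share was not particular to the members. The median distance to a start was 32.6 kb, against 23.3 kb over all regions, 14.0 kb in the regions of all 7 lists and 26.1 kb in those of all 6 hypoxia lists. These intervals treat regions as independent and cover counting error only.

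**Figure D4:**
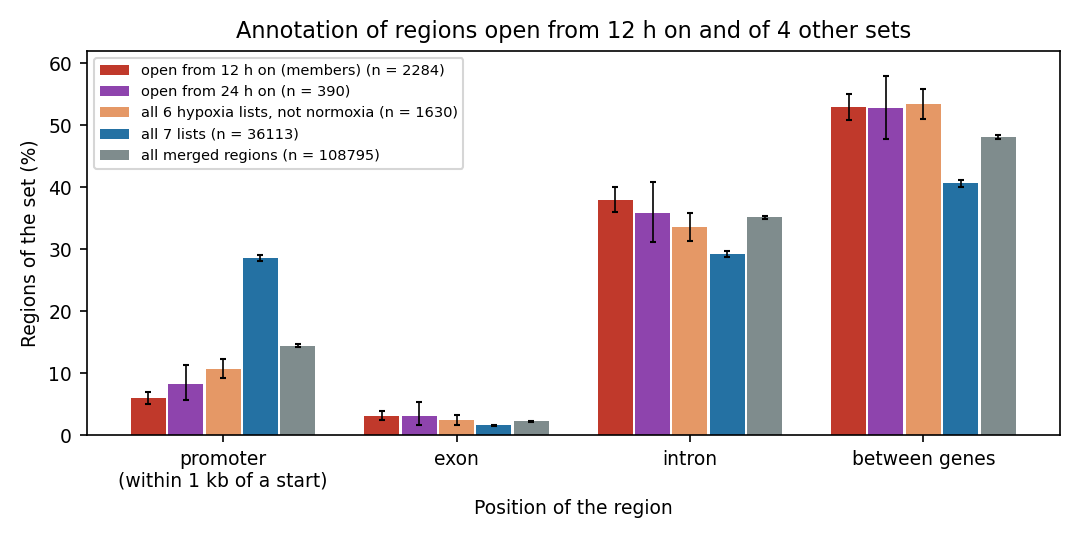
Percentage of regions (vertical axis) at promoters, in exons, in introns and between genes in 5 sets of regions, with 95% exact binomial intervals as error bars. Members (red) have the lowest promoter share, 5.95%, and the regions of all 7 lists (blue) the highest, 28.6%.

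The members' sequence had fewer G and C bases than that of constant regions. Within 100 bp of the summit the median GC content was 46.3%, against 48.3% over all regions and 51.2% in the regions of all 7 lists, and 31.5% of members reached 50%, against 55.1% in the latter. Members were 501 bp wide at the median and the regions of all 7 lists 797 bp. The X chromosome held 82 members, 3.59% of them, against 2.44% of all regions and 1.90% of the regions in all 6 hypoxia lists without normoxia. As a share of the regions on each chromosome, members made up 3.08% on X and 1.59% to 2.36% on the autosomes.

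Promoter members were few, and their summits were poorer in CpG than those of constant promoter regions. Around their summits the median GC content was 54.7% with 5 CpG pairs, against 64.7% and 16 in the 10337 promoter regions of all 7 lists. An annotated start lay in 73 of the 136, against 9383 of the 10337. The other promoter members lay beside a start, so these values describe the summits and not the promoters of the genes. The median level of promoter members was 38.5% at 12 h and 50% at 72 h. The windows of the 5 strongest follow, drawn as those above, and capitals also mark HIF (ACGTG or GCGTG), CEBP (TTGCNNAA), CTCF and NFKB letters; in the Tab2 window an AP-1 and a HIF match overlap.
Eps15, chr4:109016690-109016810: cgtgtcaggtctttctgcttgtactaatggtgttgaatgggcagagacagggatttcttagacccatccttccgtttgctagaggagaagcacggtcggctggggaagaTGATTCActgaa
Tab2, chr10:7643492-7643612: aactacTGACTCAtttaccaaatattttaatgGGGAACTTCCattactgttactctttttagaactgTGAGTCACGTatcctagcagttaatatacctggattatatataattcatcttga
9330161L09Rik, chr12:104646990-104647110: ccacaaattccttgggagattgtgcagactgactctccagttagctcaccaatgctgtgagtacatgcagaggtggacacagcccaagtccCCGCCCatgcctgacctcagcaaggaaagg
Usp50, chr2:126595294-126595414: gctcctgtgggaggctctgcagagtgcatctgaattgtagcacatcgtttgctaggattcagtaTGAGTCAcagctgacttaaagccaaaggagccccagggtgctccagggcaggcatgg
Nod2, chr8:91174424-91174544: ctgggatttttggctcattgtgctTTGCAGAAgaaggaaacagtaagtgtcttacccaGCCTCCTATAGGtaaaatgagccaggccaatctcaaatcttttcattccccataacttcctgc
AP-1 letters occurred in the windows of Eps15, an endocytic adaptor gene, Tab2, which encodes an adaptor of the TAK1 kinase in NF-kB signaling, and Usp50, a gene of the ubiquitin protease family. A match is a description of the letters and not of binding.

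The Eps15 region, 892 bp inside the gene, had a −log10 q of 10.7, 16.8, 13.9, 18.9 and 21.5 from 12 to 72 h, with 20, 24, 23, 29 and 33 reads. The Tab2 region peaked at 36 h, with 27, 29, 36, 28 and 23 reads. The region of Nod2, an intracellular sensor of bacterial cell wall fragments, had 50, 39, 31, 56 and 57 reads on a local background of 7.90 to 13.4 reads. These promoters did not share a single time course. The others of the 10 strongest belonged to 9330161L09Rik (inside the body of Ddx24), Usp50, Tnfrsf22, a decoy receptor gene for the death ligand TRAIL, Snapc4, which encodes a subunit of the complex that activates small nuclear RNA genes, Spata6, Sp100, a PML nuclear body component, and Zfhx4, a homeobox gene. Their reads ran from 13, for Sp100 at 36 h, to 34, for 9330161L09Rik at 12 and 48 h. The Sp100 region held the annotated start, 1 bp from its summit. The Zfhx4 region was the only one of the 10 below 1 in its ratio of 72 h to 12 h, at 0.81. Of the 10 genes, only 9330161L09Rik and Usp50 had no normoxia or 6 h peak within 1 kb of any of their starts. The others had such a peak outside the member, so their promoters were not closed throughout before 12 h.

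Within the pathway lists followed here, 3 promoters belonged to members, all in matrix and growth factor genes. The promoter of Tgfb2, which encodes a TGF-beta ligand, had 26, 26, 25, 32 and 29 reads from 12 to 72 h and a −log10 q of 3.11, 3.94, 4.78, 6.02 and 6.02. The promoter of Col1a1, the alpha 1 chain of type I collagen, had 10, 11, 12, 16 and 14 reads (chr11:94798166-94798920) with a −log10 q of 2.57, 4.16, 4.04, 6.62 and 4.93. The promoter of Mmp14, a membrane-bound matrix metalloproteinase, had 42, 34, 30, 34 and 31 reads, but on a local background of 11.4 to 17.4 reads, so its −log10 q was 2.63 to 4.75. The Col1a1 and Mmp14 members held HIF letters within 100 bp of the summit, and the Tgfb2 member ETS letters. All 3 promoters were weak peaks compared with the leading ones. Tgfb2 also had a normoxia or 6 h peak within 1 kb of a start, outside the member, whereas Col1a1 and Mmp14 had none.

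Car9, which encodes the carbonic anhydrase known as a strong HIF target, came close to this pattern without being a member. The region at its start (chr4:43519450-43520150) had no peak in normoxia, at 6 h and at 24 h, and 15, 9, 17 and 18 reads at 12, 36, 48 and 72 h with a −log10 q of 6.30, 1.97, 7.25 and 6.38. A second region inside the gene (chr4:43521464-43521901) had 11, 10, 13 and 23 reads at 24, 36, 48 and 72 h. Counted over all its starts, Car9 was 1 of 76 protein-coding genes (0.342%) with promoter peaks in all 5 late lists and none before, 63 of which owed this to a member. Of the 142 genes with a promoter member, the other 79 had an earlier peak within 1 kb of another start or of the same start.

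Beyond promoters, a member was tied to a gene when it lay in the gene body or within 10 kb of it. This held for 1373 of 22238 protein-coding genes (6.17%), and for 31 of the 272 genes of the pathway and marker lists (11.4%). The listed genes were longer, with a median of 23.0 kb against 15.5 kb for all genes and 60.5 kb for the genes with a member, so the share was not read as particular to the lists. Of 35 HIF targets 2 had a member, and 29 had a promoter open in all 7 lists. The first lay 12.8 kb from the start of Bnip3, a mitophagy receptor gene, with 26, 16, 22, 41 and 51 reads from 12 to 72 h and a −log10 q of 20.6 at 72 h. The other lay in an exon of Pgk1, a glycolytic kinase gene, with 25, 29, 25, 25 and 23 reads. The relative level of the Bnip3 region was 50%, 40%, 64.7%, 89.1% and 146% from 12 to 72 h, and that of the Pgk1 region 48.1%, 72.5%, 73.5%, 54.3% and 65.7%. The first was highest at 72 h and the second at 36 h.

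Among the HIF subunits and oxygen sensors, 1 of 10 genes had a member, in an intron of Epas1, which encodes HIF-2 alpha, with 17, 7, 12, 19 and 16 reads. Of 17 genes of angiogenic factors and their receptors, 4 had a member, beside 6.17% of all protein-coding genes. These genes had a median length of 45.6 kb, against 15.5 kb for all genes. With a list this small and genes this long, the count was not read as particular to the list. The intron of Angpt1, a ligand of the endothelial Tek receptor, had 17, 17, 14, 18 and 33 reads, and its ratio of 72 h to 12 h was 2.88. The introns of the semaphorin and VEGF co-receptors Nrp1 and Nrp2 had 18, 22, 14, 14 and 13 reads and 40, 45, 37, 59 and 46 reads. A region within 10 kb of Flt1, which encodes a VEGF receptor, had 19 reads at 12 h and 13 at 72 h, which in relative level were 36.5% and 37.1%. By relative level the Angpt1 and Nrp2 regions were highest at 72 h, at 94.3% and 131%, and the Nrp1 and Flt1 regions at 24 h, at 55% and 45%.

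Matrix and invasion genes had 9 entries. Over all protein-coding genes 6.17% had a member, and the median length was 15.5 kb. It was 41.9 kb in the matrix list and 15.1 kb in the list of proteases and invasion genes. With lists this small, the counts were not read as particular to them. Of 29 genes of collagens and matrix, 5 had a member, among them Col1a1, Col4a2, Col5a2 and Tnc. The Col4a2 intron, in a basement membrane collagen gene, had 37, 19, 27, 19 and 24 reads. Of 21 proteases and invasion genes, 4 had a member. They were Mmp14, Plat, the tissue plasminogen activator gene, with 37, 28, 20, 26 and 29 reads 3.02 kb upstream, and the integrin genes Itgav, with 43, 30, 37, 55 and 45 reads, and Itgb1, with 29, 32, 20, 38 and 30 reads. By reads or by relative level, none of these named regions was higher, or lower, at every step. Of 20 genes of mesenchymal transition only Tgfb2 had members, the promoter above and an intronic region with 23, 13, 17, 17 and 26 reads.

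Of 18 growth factor receptor genes, Met and Fgfr2 had a member each. The Met intron, in the receptor gene of hepatocyte growth factor, had 41, 37, 25, 42 and 29 reads, and the Fgfr2 intron 29, 13, 21, 22 and 25 reads with a −log10 q of 19.9 at 12 h. Among transcription factor genes, Nfia had 1 member and Nfib 2, Yap1, Fosb and Atoh8 had 1 each, and a region near E2f3 had 1. The Nfia intron, 9.60 kb from a start, had 24, 24, 18, 21 and 21 reads and the Yap1 intron 27, 17, 12, 14 and 19. Of 10 NRF2 targets, 2 had a member, in introns of Gclc, which makes glutathione, and Slc7a11, which imports cystine, with −log10 q of 1.97 to 7.96. Krt19 and Ovol2 of 17 epithelial genes, Tslp of 18 cytokine genes and Mki67 of 12 cell cycle genes had 1 member each. Genes of the 15 stress response proteins and of the 5 annotated C/EBP factors had none, beside 6.17% of all protein-coding genes. With lists this small and genes this short, at a median of 5.2 and 2.6 kb, this was not read as an absence. Of their promoters 14 and 3 were open in all 7 lists.

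The genes with the most members were very long. Gm20388, an annotation that spans 4435 kb across many other genes, and Macrod2, a macrodomain hydrolase gene of 1998 kb, held 5 members each of 362 and 121 regions. Prkg1, a cGMP-dependent kinase gene of 1196 kb, held 5 of 29. Of these 5, 3 had 26, 26 and 25 reads at 12 h and 15, 12 and 13 at 72 h, and all 3 held AP-1 letters. Their ratios of relative level at 72 h to 12 h were 0.857, 0.686 and 0.773, and those of the other 2 members were 1.14 and 1.60. Dlg2 and Dlgap2, genes of synaptic scaffold proteins, held 4 each of 88 and 46 regions, and Etl4 and Pcdh15 held 4 each as well. Over all genes 149 had 2 or more members and 28 had 3 or more. Of the 2148 members outside promoters, 57.9% (55.7% to 60%) had a nearest gene whose promoter was open in all 7 lists, against 56.4% of all such regions and 61.9% of those of all 7 lists, so the members' share was close to the background.

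Motif letters within 100 bp of the summit were counted on both strands for 27 motifs. AP-1 letters were the most frequent, in 995 members (43.6%, exact binomial interval 41.5% to 45.6%), against 37.5% of all regions, 44.1% of the regions of all 7 lists and 45.5% of the regions of all 6 hypoxia lists without normoxia. In the 390 regions open from 24 h on the share was 27.7%, with the members' interval above it. Outside promoters the AP-1 share was 45.2% in members and 57.9% in the regions of all 7 lists. Between a GC content of 40% and 50% it was 46.6% in members (43.8% to 49.5%), 60.7% in the regions of all 7 lists and 43.7% in all regions. AP-1 was thus no more frequent in members than in constantly open distal sites. The AP-1 letters lay a median of 36.0 bp from the summit in the members and 32.0 bp in the regions of all 7 lists, and 106 members held 2 or more.

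The HIF letters were less frequent in members, at 18.4% (16.8% to 20.0%), than in all regions, at 23.6%, and in the regions of all 7 lists, at 31.7%. The HIF share varied with GC content. Under 40% GC the HIF share was 11.8% in members (8.64% to 15.7%) and 11.6% in the regions of all 7 lists. At 50% GC and over it was 25.3% (22.1% to 28.6%) against 42.6%. SP/KLF letters were found in 5.08% of members and 22.5% of the regions of all 7 lists, ETS letters (CCGGAAG) in 1.40% and 5.52%, NFY letters (CCAATCA) in 2.36% and 4.87% and CTCF letters in 2.45% and 3.04%. The members' CTCF interval, 1.86% to 3.17%, held the latter share and lay below the 3.69% of all regions. All of these except CTCF are common at promoters. Outside promoters the HIF share was 17.5% in members and 22.6% in the regions of all 7 lists, the SP/KLF share 3.63% and 6.82% and the CTCF share 2.37% and 2.20%.

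Several motifs of other factor families were at or above the background. CEBP letters were in 10.6% of members (9.40% to 12.0%), against 8.75% of all regions and 7.70% of the regions of all 7 lists, and in 14.4% of the regions open from 24 h on. The composite CEBP-ATF letters (TGATGNAA) were in 4.29% (3.50% to 5.20%), against 3.52% and 3.07%. GATA letters (AGATAA) were in 10.6% (9.40% to 12.0%), against 8.34% and 6.40%, NFKB letters in 4.77% (3.93% to 5.73%), against 3.59% and 4.29%, and the single arm of the NFI site (TTGGCA) in 17.1% (15.6% to 18.7%), against 15% and 15.3%. In the regions of all 6 hypoxia lists without normoxia the shares were, in the same order, 10.1%, 3.68%, 9.63%, 4.29% and 18.7%. Each lay within the members' interval, so none of these motifs was particular to the members. Within the middle range of GC, the CEBP share was 11.7% (9.99% to 13.7%) in members, 10.2% in all regions and 10.5% in the regions of all 7 lists, and the GATA share 11.2% (9.45% to 13.1%), 10.0% and 9.53%, so there the members' intervals held the shares of both other sets. The NFKB share in that range was 4.68% (3.56% to 6.02%) in members, above the 3.06% of all regions and the 3.41% of the regions of all 7 lists. Under 40% GC the members' interval was 1.60% to 5.62%, against 1.56% and 1.77%. At 50% GC and over, it was 4.12% to 7.65% and held both other shares, 4.84% and 5.21%. In the 411 members with a −log10 q of 5 or more in each late list, the NFKB share was 2.68% (1.34% to 4.74%). That interval held the 3.59% of all regions. RUNX letters (TGTGGTT), at 9.11%, TEAD letters, at 5.91%, and FOX letters, at 6.09%, had intervals that held the shares of all regions, 8.16%, 5.69% and 5.32%. AP-1 and CEBP letters stood together in 4.47% of members, against 3.37% of all regions.

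**Figure D5:**
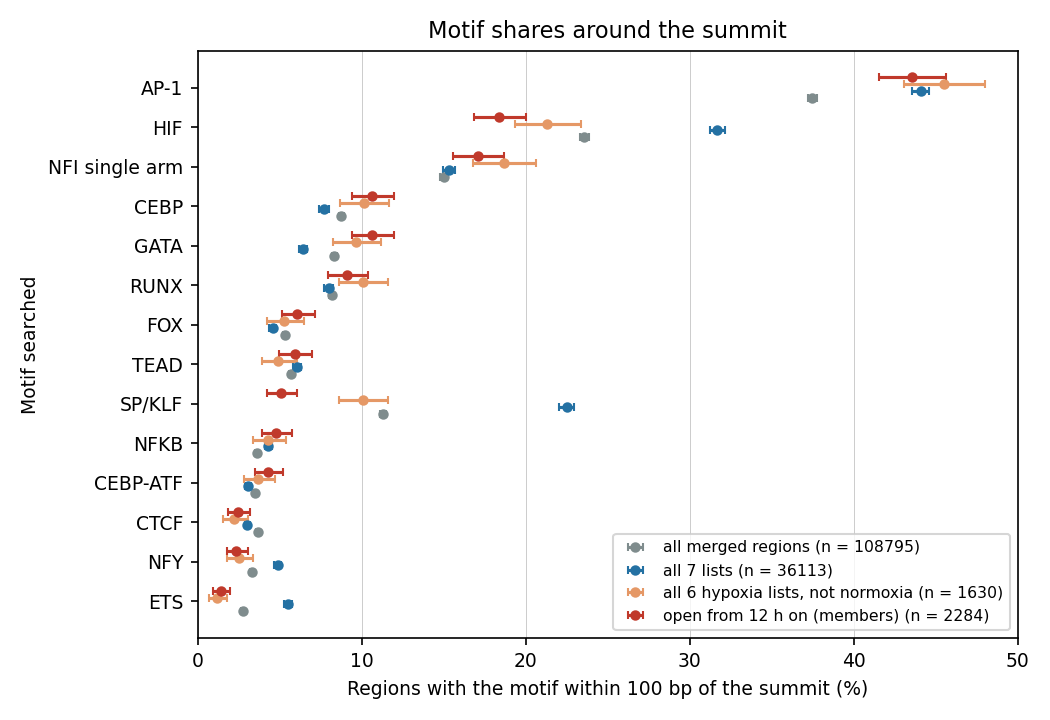
Percentage of regions with the letters of 14 motifs within 100 bp of the summit, in 4 sets of regions, with 95% exact binomial intervals. AP-1 stands at 43.6% in members and 44.1% in the regions of all 7 lists, whereas HIF stands at 18.4% and 31.7% and SP/KLF at 5.08% and 22.5%.

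Members with and without a motif were also compared in level and course. The median relative level at 72 h was 48.6% with and without AP-1 letters, and the median ratio of 72 h to 12 h was 1.38 with and 1.49 without them. AP-1 letters were in 41.5% of the 956 members higher at 72 h, 44.7% of the 1274 between and 53.7% of the 54 lower ones, and CEBP letters in 12.0%, 9.65% and 9.26%. CEBP-ATF letters were in 4.92%, 3.61% and 9.26%, and FOX letters in 6.38%, 6.12% and none of the 54. The 56 members with CTCF letters had a lower median level than the others, 29.8% against 34.6% at 12 h and 40% against 48.6% at 72 h. These groups were cut from the same levels, and no test was made on them.

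Whether stronger members differed from the rest depended on how strength was set. The 535 members above both early calling levels had a promoter share of 9.72% (7.34% to 12.6%), against 4.8% (3.85% to 5.91%) in the other 1749, an AP-1 share of 42.2%, against 44.0%, and a HIF share of 18.9%, against 18.2%. RUNX letters were in 6.36% (4.44% to 8.77%) and 9.95% (8.59% to 11.4%), FOX letters in 4.30% and 6.63%, SP/KLF letters in 7.10% and 4.46% and ETS letters in 0.748% and 1.60%. The share of the 535 higher at 72 h was 28.8%, against 45.9% in the other members, and was above the 13.7% of all regions with 5 late peaks. This cut drops members with a low level in any late list, and the lowest level fell at 12 h in 43.5% of members. The difference in course is therefore partly set by the cut and was not read as a result. In the 411 members with a −log10 q of 5 or more in each late list, the promoter share was 5.35% (3.38% to 7.99%), the AP-1 share 49.6% (44.7% to 54.6%) and the share higher at 72 h 44.0%. In all members these shares were 5.95%, 43.6% and 41.9%, so this cut showed neither a higher promoter share nor a smaller share higher at 72 h.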

How the data were processed

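Bulk ATAC-seq of 14 samples of 4T1 cells (7 groups of 2 replicates, grouped by the sample labels) was analysed from 7 peak lists. The authors fixed the cells before transposition. Trimmed read pairs were aligned to mm9, duplicates removed, replicates merged and narrow peaks called; the submitters' processing notes name Bowtie2 2.1.0, Picard 1.79 and MACS2, for which a version is not given in the sources used here. The authors' fold enrichment divides the summit reads plus 1 by the local background plus 1 (a ratio). Significance of the summit was deposited as −log10 of the p-value and of the q-value, with no scaling between lists, beside the summit's offset in the peak. The lists reached a q of 0.05, looser than the 0.01 in the methods. Peaks at nuclear copies of mitochondrial DNA and in excluded regions, which the methods describe as filtered, were not removed here.

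Summit reads were the whole number that gave both the deposited fold and −log10 p, a step checked on simulated peaks. The replicates had been pooled, so precision is given by the summit reads alone. Intervals of shares were exact binomial (Clopper-Pearson) at 95%, and those of the 72 h to 12 h ratios were exact and conditional on the sum of both read counts. NCBIM37 (mm9) with its GENCODE annotation supplied sequence and genes. Motifs were fixed letters without mismatches. Named were the 10 members and the 10 promoter members with the highest mean −log10 q rank in the late lists, members of listed genes, the 5 highest and 5 lowest ratios, the 5 genes with the most members and 3 regions on each side of the limits; Car9 and the other genes with 4 members were named after their values were seen, and a few regions that the rule names are not reported here. The members, lists and alternatives were chosen with earlier results of these data known. Alternatives changed the q limit, list length, merging, distances, late lists asked for, strength measure, motif window and gene rule. The work used scipy 1.17.1, pandas 2.3.3, numpy 2.4.6 and matplotlib 3.10.9 under Python 3.11.15.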

Additional observations from a re-analysis of the deposited data

How the results depend on the processing

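No paired analysis was possible because each list pools both replicates of its group. The number of members, 2284, was 2133 with a −log10 q of 2 or more in all 7 lists, 2242 with peaks within 200 bp merged, 2056 without an early peak within 1000 bp, 2081 with late summits within 250 bp and 2202 on autosomes. With a −log10 q of 5 or more in all 7 lists it was 1673, of which 411 overlapped a member, since raising the limit in the early lists lets other regions enter. It was 411 when that limit was asked of the late lists only, 226 with the 20000 strongest peaks of each list, of which 0 overlapped a member, and 535 when the lowest late level had to reach both early calling levels. With the 36 h list left out it was 3474, with the 72 h list left out 3436, and 2502 to 2842 with another late list left out. The promoter share of 5.95% became 16.1% at a distance of 5 kb (24.2% over all regions, 37.0% in the regions of all 7 lists). With the deposited fold enrichment in place of summit reads, the median relative level was 53.3%, 53.5%, 56.2%, 58.6% and 62% from 12 to 72 h, and the share higher at 72 h was 26.3%. The number of motifs with a higher share in members than in all regions was 14 of 27, and 11 to 16 under the other windows, limits and GC ranges. Listed genes with a member numbered 52 by the nearest start, against 31. The depth of the pooled lists limits the absence of a peak: a site under 11 reads at 6 h or 5 reads in normoxia, over genome background, could not be listed.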
